A study of Homo sapiens with 3 samples.

Results

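The genes described here are 47 genes of DNA replication licensing and of the replication fork, taken by symbol from the gene-level FPKM table of H660 cells. All 47 were found, each in 1 of the 58735 rows of the table. H660 (NCI-H660), here the parental line, was established from a human prostate cancer of neuroendocrine type, and JG231 blocks the chaperone HSP70 allosterically. The 3 libraries came from cells given the vehicle DMSO, 2.5 μM JG231 or 5 μM JG231 for 24 h, with 1 library per condition, so no standard deviation or p-value could be given for any gene. The JG231 doses are read from the sample titles, which give the number and no unit, and from the methods of the study, which give the time as well.

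Before S phase, the origin recognition complex (ORC), CDC6 and CDT1 load pairs of the ring-shaped MCM2-7 helicase onto DNA, a step called licensing, and geminin (GMNN) binds CDT1 to keep origins from being licensed again. At the start of S phase, CDC45 and the GINS complex join MCM2-7 to form the active helicase. Behind it, DNA polymerase α with primase lays down primers, the RFC clamp loader places the PCNA ring, polymerases δ and ε copy the strands, RPA covers single-stranded DNA, and FEN1 and LIG1 join the lagging-strand pieces. Most of these genes are transcribed under E2F control towards S phase, and their transcripts are known as markers of dividing cells.

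The deposited values are FPKM, which count fragments relative to transcript length and to the mapped reads of the library and so correct for transcript length and library size. Differences are on the log2 scale after adding 0.1 to each FPKM, which understates those of low genes, and a gene is called higher or lower where it had over 1 FPKM in either library and a log2 difference over 0.25 in size. The steps between low values put the libraries at 16.1 to 24.1 M fragments. The 47 genes stood on approximately 117 to 6985 fragments in DMSO, 76.1 to 8640 at 2.5 μM and 86.8 to 11966 at 5 μM. Without replicates, the yardstick used for a gene, called its spread, was how far the 500 genes of most similar mean FPKM scattered between the JG231 libraries (a robust SD on the log2 scale). It was 0.20 to 0.75 for these genes, with a median of 0.29. It contains any true difference between the doses. Rescaling the libraries with mitochondrial and small RNA genes left out moved the median gene with a mean FPKM of at least 1 to -0.28 at 2.5 μM (0.00 as deposited) and to -0.38 at 5 μM (-0.01 as deposited), and single genes are given below with the settings that turned the direction of a called value.

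Of the markers of the cell line, the neuroendocrine genes SYP, CHGA, ENO2, NCAM1 and INSM1 had between 3.40 and 45.99 FPKM across the libraries, while the prostate luminal gene KLK3 had at most 0.13 FPKM. The sample records call the cells prostatic adenocarcinoma. The proliferation marker MKI67 had 15.98 FPKM under DMSO, 8.55 with 2.5 μM and 5.55 with 5 μM, and the topoisomerase gene TOP2A had 78.8, 61.9 and 52.1 FPKM. Both were lower with JG231 at each dose. Their transcripts are long, 12716 bp for MKI67 and 5695 bp for TOP2A. Among protein-coding genes longer transcripts were lower, with a median log2 difference of -0.52 at 5 μM in the longest of 10 length bins. In bulk RNA, fewer cells in S phase, less RNA per cell and this trend with length cannot be told apart.

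Replication genes were well expressed in the vehicle library. In DMSO the 47 genes ran from 2.45 FPKM (GINS4) to 340.3 FPKM (PCNA), with a median of 13.3 FPKM against 5.36 FPKM for all genes over 1 FPKM. Their median was 14.7 FPKM at 2.5 μM and 14.3 FPKM at 5 μM. All were over 1 FPKM in DMSO and at 2.5 μM, and at 5 μM only GINS4 was not.

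**Figure D1:**
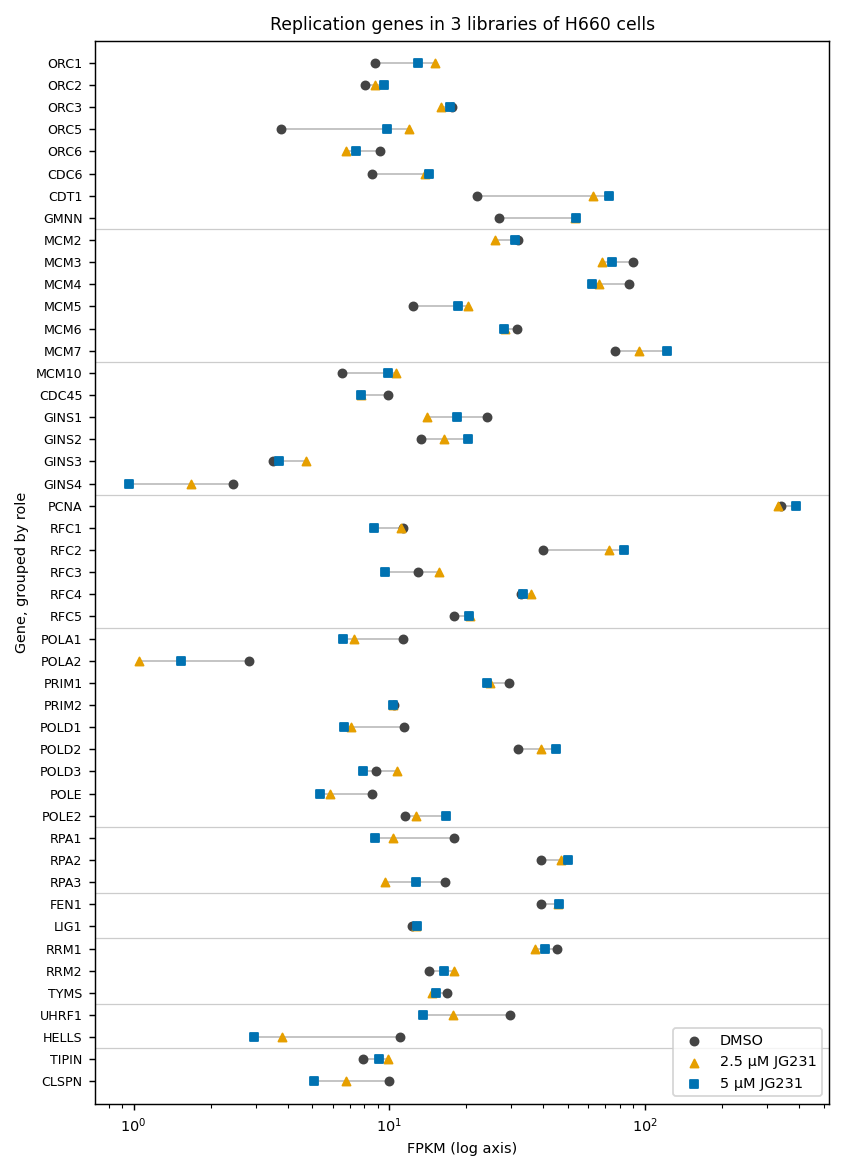
FPKM of the 47 replication genes on a log axis, with 1 point for each of the 3 libraries and a line joining the lowest and highest value of a gene. PCNA was highest in each library, at 332 to 389.8 FPKM, and CDT1, ORC5 and HELLS have the libraries widest apart among the licensing and chromatin genes.

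The genes did not move one way. At 2.5 μM 17 of 47 genes were called higher and 17 were called lower, and at 5 μM 13 were called higher and 18 lower. These are 36.2% and 36.2% of the genes at 2.5 μM, where 36.4% of 15746 genes tested were called higher and 43.4% lower. At 5 μM they are 27.7% and 38.3%, where 36.5% of 15765 genes tested were called higher and 45.1% lower. The median log2 difference of the 47 genes was -0.02 at 2.5 μM and -0.03 at 5 μM, against -0.08 and -0.11 over all genes tested. The background depends on expression. Over the 7583 genes whose mean FPKM reached 5, which include 44 of the 47, the medians were 0.01 and -0.02 for the replication genes and 0.21 and 0.23 for all. At that level 15 of 44 replication genes and 1978 of 7583 genes were called lower at 2.5 μM, and 16 and 2076 at 5 μM. On the higher side they were 16 and 3639 at 2.5 μM, and 13 and 3700 at 5 μM. Large differences were fewer among the replication genes than among all genes tested. At 2.5 μM 2 genes were higher and 2 lower by over 1 on the log2 scale, 4.26% each (12.9% and 21.7% of all genes tested). At 5 μM 4 were higher and 4 lower, 8.51% each (14.7% and 24.3%). The gap was smaller against 11200 protein-coding genes that averaged 1 FPKM or more. Of these, 1198 were higher and 1124 lower by over 1 at 2.5 μM, and 1392 and 1434 at 5 μM. Whether the replication genes differ from this background was not tested. The 4 replication genes higher at 5 μM were CDT1, ORC5, RFC2 and GMNN, and the 4 lower were HELLS, GINS4, UHRF1 and RPA1. After rescaling that left out mitochondrial and small RNA genes, ORC5 (0.98), RFC2 (0.67) and GMNN (0.62) were short of 1. CLSPN (-1.34), POLA2 (-1.20), POLA1 (-1.15), POLD1 (-1.14) and POLE (-1.05) were then past -1. A single DMSO library served for both doses, so the values at the 2 doses are not independent.

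**Figure D2:**
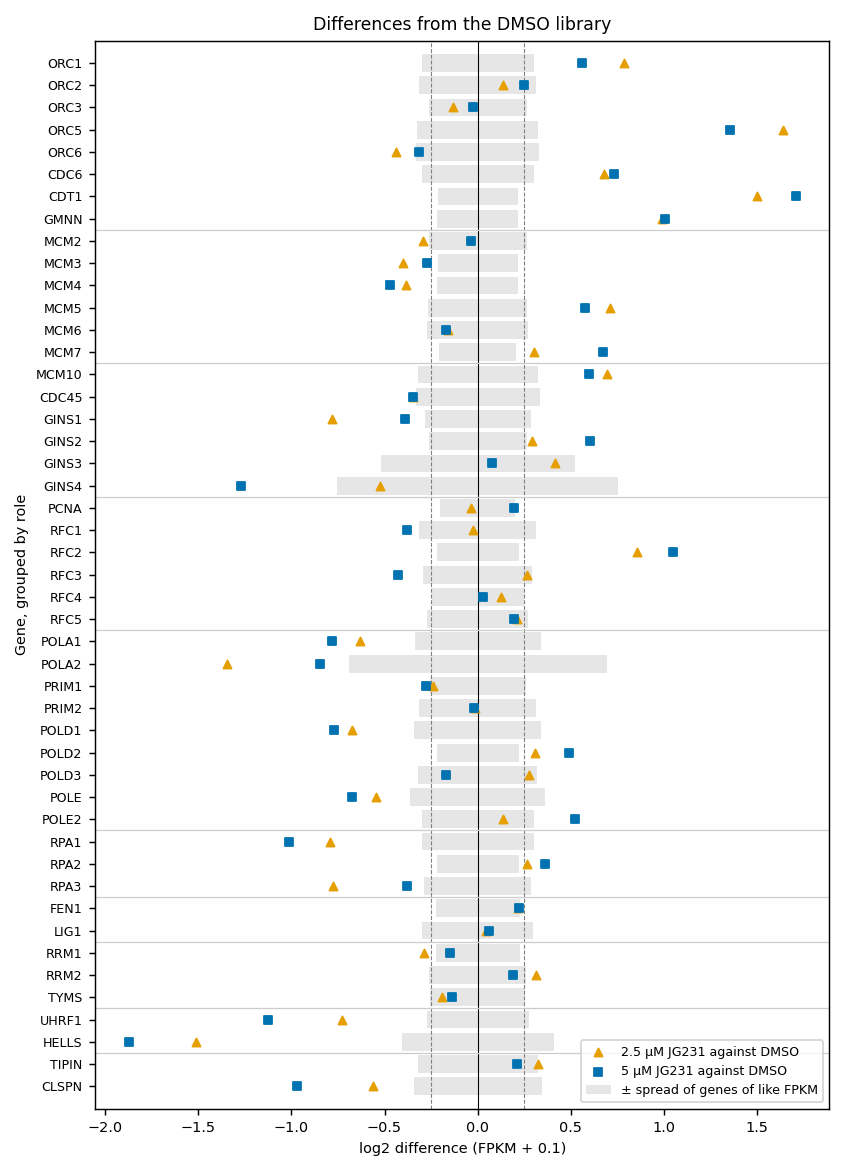
Log2 differences of the 47 genes from DMSO at 2.5 μM (triangles) and 5 μM (squares), grouped by role, with grey bars for plus and minus the spread of genes of like FPKM and dashed lines at 0.25. The licensing genes CDT1 and ORC5 lie furthest right at both doses, from 1.35 to 1.71, and HELLS lies furthest left, at -1.51 and -1.87.

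Among the 8 genes of origin recognition and licensing, the inhibitor GMNN included, 5 were called higher and 1 lower at each dose. Their median log2 difference was 0.73 at 2.5 μM and 0.65 at 5 μM. After rescaling that left out mitochondrial and small RNA genes these medians were 0.44 and 0.27. Of all genes tested, 36.4% were called higher at 2.5 μM and 36.5% at 5 μM. CDT1, which brings MCM2-7 to the origin, had 22.1 FPKM under DMSO, 62.4 with 2.5 μM and 72.3 with 5 μM. Its log2 differences were 1.495 and 1.71 against a spread of 0.21, with a 95% interval of 1.61 to 1.81 at 5 μM that, like all intervals here, covers counting error only and takes each fragment as 1 molecule. GMNN, the inhibitor of CDT1, had 26.8, 53.3 and 53.8 FPKM, log2 differences of 0.99 and 1.002 that came to 0.64 and 0.52 with the length trend removed. The licensing factor and its inhibitor were therefore both higher with JG231, and CDT1 went from 0.823 of the GMNN level under DMSO to 1.17 with 2.5 μM and 1.34 with 5 μM. CDC6, the ATPase that acts with ORC, had 8.57 FPKM under DMSO, 13.8 with 2.5 μM and 14.3 with 5 μM, log2 differences of 0.68 and 0.73 that came to 0.39 and 0.36 after rescaling.

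The ORC subunits differed among themselves. ORC5, a core subunit, had 3.79 FPKM under DMSO, 12.0 with 2.5 μM and 9.83 with 5 μM, log2 differences of 1.64 and 1.35 against a spread of 0.32. ORC1, the subunit whose protein is known to vary with the cell cycle, had 8.76, 15.2 and 13.0 FPKM, log2 differences of 0.78 and 0.56. The second came to 0.18 after rescaling, short of the threshold. ORC5 and ORC1 were lower at 5 μM than at 2.5 μM, by -0.28 and -0.22 on the log2 scale, within their spread. ORC6 was the subunit called lower, with 9.19 FPKM under DMSO, 6.77 with 2.5 μM and 7.38 with 5 μM, and its log2 difference of -0.31 at 5 μM was within its spread of 0.33. ORC2 had 8.01, 8.82 and 9.52 FPKM and ORC3 had 17.5, 15.99 and 17.2 FPKM, neither called at either dose. The ORC2 differences of 0.14 and 0.25 turned to -0.15 and -0.13 after rescaling that left out mitochondrial and small RNA genes. The same rescaling took ORC3 from -0.13 and -0.03 to -0.42 and -0.40, past the threshold. Over these 5 subunits (ORC4 is not among the 47 genes), the highest level was 4.63 times the lowest in DMSO, 2.36 times at 2.5 μM and 2.34 times at 5 μM.

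In the MCM2-7 helicase, 2 of 6 subunits were called higher at each dose, and 3 were called lower at 2.5 μM and 2 at 5 μM. The counts are near the shares of all genes tested, 36.4% higher and 43.4% lower at 2.5 μM, and 36.5% and 45.1% at 5 μM. MCM7 had 76.4 FPKM under DMSO, 94.4 with 2.5 μM and 122.1 with 5 μM, and was below MCM3 and MCM4 in DMSO but above all other subunits in both JG231 libraries. Its log2 difference of 0.30 at 2.5 μM came to 0.01 after rescaling and to 0.15 with the length trend removed, and neither is past the threshold. MCM5, the lowest subunit in each library, had 12.4, 20.4 and 18.6 FPKM, log2 differences of 0.71 and 0.58. The second came to 0.20 after rescaling, short of the threshold. MCM3 and MCM4 were the other way. MCM3 had 89.8, 68.0 and 74.4 FPKM and MCM4 had 86.3, 66.1 and 62.2 FPKM, with log2 differences between -0.27 and -0.47 that were each larger than the spread of 0.21 to 0.22. MCM2 had 31.8, 25.9 and 30.9 FPKM and was called lower at 2.5 μM only (-0.29, and -0.24 with libraries at the same sum), with -0.42 at 5 μM after rescaling. MCM6, with 31.6, 28.3 and 28.1 FPKM, was not called at either dose, but came to -0.45 and -0.55 after rescaling, past the threshold. The sum over the 6 subunits was 328 FPKM under DMSO, 303 with 2.5 μM and 336 with 5 μM, while single subunits differed in opposite directions.

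Of the genes that complete and start the helicase, MCM10, which helps it to fire, had 6.51 FPKM under DMSO, 10.6 with 2.5 μM and 9.88 with 5 μM, log2 differences of 0.69 and 0.59. The second came to 0.22 after rescaling, short of the threshold. CDC45, part of the active helicase, had 9.92, 7.78 and 7.78 FPKM, a log2 difference of -0.35 at both doses against a spread of 0.33. The GINS subunits divided. GINS1 had 24.2 FPKM under DMSO, 14.0 with 2.5 μM and 18.4 with 5 μM, log2 differences of -0.78 and -0.39, and was the highest GINS subunit in DMSO only. GINS2 had 13.3, 16.3 and 20.3 FPKM and was the highest in both JG231 libraries. Its log2 differences of 0.29 and 0.60 came to 0.00 and 0.22 after rescaling that left out mitochondrial and small RNA genes. GINS3 had 3.52, 4.73 and 3.71 FPKM, within its wide spread of 0.52. GINS4, the lowest subunit, had 2.45 FPKM under DMSO, 1.68 with 2.5 μM and 0.956 with 5 μM, a log2 difference of -1.27 at 5 μM (95% interval -1.74 to -0.98) against a spread of 0.75. The last value stands on about 86.8 fragments, and the canonical GINS4 transcript overlaps 2 non-coding genes on the opposite strand. Whether the counting used the strand is not given in the sources used here.

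For the sliding clamp and its loader, RFC2 was the gene that stood apart. RFC2, a small RFC subunit, had 40.0 FPKM under DMSO, 72.5 with 2.5 μM and 82.8 with 5 μM, log2 differences of 0.86 and 1.05 against a spread of 0.22. RFC4 had 32.7, 35.7 and 33.3 FPKM and RFC5 had 17.9, 20.7 and 20.5 FPKM, and neither was called at either dose. At 5 μM, rescaling turned RFC4 from 0.03 to -0.35, past the threshold, and RFC5 from 0.19 to -0.19, and RFC4 was -0.43 with the length trend removed. RFC1, the large subunit, had 11.3, 11.1 and 8.68 FPKM and was called lower at 5 μM only, by -0.38, which came to -0.19 with the length trend removed. RFC3 had 13.0 FPKM under DMSO, 15.6 with 2.5 μM and 9.62 with 5 μM, and was called higher at the lower dose and lower at the higher dose. PCNA had 340.3 FPKM under DMSO, 332 with 2.5 μM and 389.8 with 5 μM. Its log2 differences of -0.03 and 0.20 were not called. At 2.5 μM the value came to -0.33 after rescaling and to -0.37 with the length trend removed, both past the threshold, and at 5 μM the value turned to -0.18 after rescaling that left out mitochondrial and small RNA genes and to -0.28 with the length trend removed.

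The catalytic polymerase subunits were lower in both JG231 libraries, and several accessory subunits were not. POLA1, the catalytic subunit of polymerase α, had 11.4 FPKM under DMSO, 7.30 with 2.5 μM and 6.57 with 5 μM, log2 differences of -0.63 and -0.78. POLD1, the catalytic subunit of polymerase δ, had 11.4, 7.11 and 6.65 FPKM, log2 differences of -0.68 and -0.77. POLE, that of polymerase ε, had 8.60, 5.86 and 5.35 FPKM, log2 differences of -0.55 and -0.67. These 3 were each beyond their spread of 0.34 to 0.36, although the POLE value at 5 μM came to -0.24, short of the threshold, with the length trend removed. POLA2, the second subunit of polymerase α, had 2.83, 1.05 and 1.53 FPKM, log2 differences of -1.35 and -0.85 against a spread of 0.69 at its low level. A protein-coding gene on the same strand, itself listed at 0 in all 3 libraries, covers 1978 of the 3544 bases of the canonical POLA2 transcript, so reads could be split between them.

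Among accessory subunits, POLD2 had 31.8 FPKM under DMSO, 39.4 with 2.5 μM and 44.7 with 5 μM, log2 differences of 0.31 and 0.49. POLE2 had 11.5, 12.7 and 16.6 FPKM and was called higher at 5 μM only, by 0.52. The POLD2 difference at 2.5 μM came to 0.02 both after rescaling and with the length trend removed. POLD2 and POLE2 came near 0.1 at 5 μM when rescaled or with the length trend removed (0.10 to 0.15). POLD3 had 8.89, 10.8 and 7.88 FPKM, log2 differences of 0.27 and -0.17 that were both negative, -0.016 and -0.55, after rescaling that left out mitochondrial and small RNA genes. The primase genes differed from each other. PRIM1, the catalytic primase subunit, had 29.3, 24.8 and 24.2 FPKM, log2 differences of -0.24 and -0.28, the second of them called and beyond its spread of 0.26. At 5 μM it came to -0.65 after rescaling and to -0.72 with the length trend removed. PRIM2 had 10.5, 10.3 and 10.3 FPKM, a log2 difference of -0.02 at both doses that came to -0.30 and -0.40 after rescaling, past the threshold. Stretches of PRIM1 exons of up to 362 bases overlap other genes in the annotation.

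The 3 subunits of RPA, the protein that coats single-stranded DNA, went in different directions. RPA1, the large subunit, had 17.9 FPKM under DMSO, 10.3 with 2.5 μM and 8.82 with 5 μM, log2 differences of -0.79 and -1.01 against a spread of 0.30. RPA3 had 16.6, 9.64 and 12.7 FPKM, log2 differences of -0.78 and -0.38. RPA2 had 39.0, 46.97 and 50.1 FPKM and was called higher at both doses, by 0.27 and 0.36, but its sign turned to -0.02 at both doses after rescaling that left out mitochondrial and small RNA genes and to -0.02 and -0.04 with the length trend removed.

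Lagging-strand processing and nucleotide supply had few calls. The flap nuclease FEN1 had 39.4, 45.7 and 45.95 FPKM and the ligase LIG1 had 12.3, 12.7 and 12.9 FPKM in the DMSO, 2.5 μM and 5 μM libraries, and neither was called. Rescaling turned FEN1 from 0.21 and 0.22 to -0.08 and -0.16, and LIG1 from 0.04 and 0.06 to -0.25 and -0.31. RRM1 and RRM2 form ribonucleotide reductase, which makes deoxynucleotides. RRM1 had 45.3, 37.1 and 40.8 FPKM and was called lower at 2.5 μM only (-0.29, and -0.24 with libraries at the same sum). At 5 μM it came to -0.53 after rescaling, past the threshold. RRM2 had 14.3, 17.8 and 16.4 FPKM and was called higher at 2.5 μM only (0.31). For RRM2 the rescaling gave 0.02 at 2.5 μM and turned the 0.19 at 5 μM to -0.19. TYMS, thymidylate synthase, had 16.8, 14.7 and 15.2 FPKM and was not called, but its log2 differences of -0.19 and -0.14 came to -0.48 and -0.52 after rescaling and to -0.47 and -0.53 with the length trend removed. Of the 1613 bases of its canonical transcript 967 are shared with ENOSF1 on the opposite strand, so its values are uncertain if strand was not used.

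Both genes that act on chromatin at the fork were called lower at each dose, and HELLS was the lowest of the 47 genes relative to DMSO. Lower calls were made for 43.4% of all genes tested at 2.5 μM and 45.1% at 5 μM. HELLS, a chromatin remodeller needed for DNA methylation, had 11.1 FPKM under DMSO, 3.82 with 2.5 μM and 2.94 with 5 μM, log2 differences of -1.51 and -1.87 (95% interval at 5 μM -2.13 to -1.68) against a spread of 0.41. UHRF1, which reads hemimethylated DNA and recruits the maintenance methyltransferase, had 29.6, 17.8 and 13.5 FPKM, log2 differences of -0.73 and -1.13. In the fork protection group, CLSPN, the checkpoint mediator claspin, had 10.02 FPKM under DMSO, 6.76 with 2.5 μM and 5.06 with 5 μM, log2 differences of -0.56 and -0.97, which shrank to -0.31 and -0.50 with the length trend removed. TIPIN, a partner of the TIMELESS protein, had 7.87, 9.89 and 9.14 FPKM and was called higher at 2.5 μM only, by 0.32, which came to 0.04 after rescaling and to 0.07 with the length trend removed. HELLS, UHRF1 and CLSPN were each lower at 5 μM than at 2.5 μM, by -0.36, -0.40 and -0.41, for HELLS within its spread, and for CLSPN short of the threshold with the length trend removed (-0.21).

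**Figure D3:**
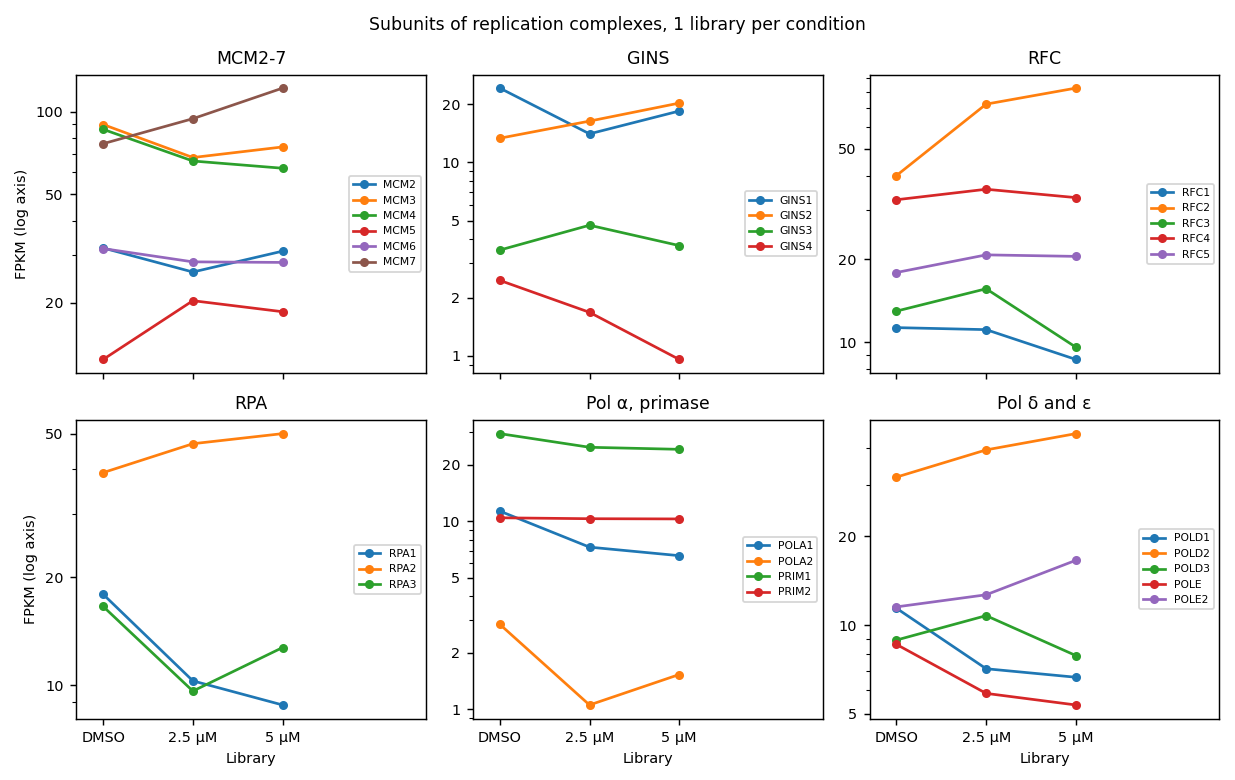
FPKM on a log axis of the subunits of 6 replication complexes or groups in the DMSO, 2.5 μM and 5 μM libraries, 1 line per gene. The lines of RPA1 and RPA2 move apart, from 17.9 and 39.0 FPKM in DMSO to 8.82 and 50.1 FPKM at 5 μM, and MCM7 is above MCM3 and MCM4 in the JG231 libraries.

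Ratios between subunits within a library do not depend on how libraries are scaled, and several moved by more than the spread of either gene. The pairs were chosen after the values were seen. RPA2 was 2.18 times RPA1 in DMSO, 4.56 times at 2.5 μM and 5.68 times at 5 μM. POLD2 was 2.79, 5.54 and 6.72 times POLD1, POLE2 was 1.34, 2.16 and 3.10 times POLE, and RFC2 was 3.54, 6.52 and 9.54 times RFC1. In these 4 pairs the subunit with the shorter transcript gained on the one with the longer transcript, 1584 against 4847 bp for RPA2 and RPA1. The same held for PRIM1 over POLA1 (2.58, 3.40 and 3.68), GINS2 over GINS4 (5.44, 9.75 and 21.2) and RPA3 over RPA1 (0.925, 0.937 and 1.44). In 2 other pairs it did not at each dose. MCM7, at 2467 bp, was 6.15, 4.63 and 6.57 times MCM5, at 3458 bp, and PCNA, at 1276 bp, was 8.64, 7.28 and 8.48 times FEN1, at 2016 bp. MCM7 went from 0.886 to 1.43 and 1.964 times MCM4, at 4062 bp. The ratio of CDT1 to GMNN moved against transcript length, since CDT1 has 2664 bp and GMNN 1263 bp. ORC5 went from 0.412 times ORC6 in DMSO to 1.77 times at 2.5 μM and 1.33 times at 5 μM, and their transcripts are of similar length, 1924 and 1615 bp.

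Transcript length and the difference from DMSO moved together across the genes. Over the 47 genes, whose canonical transcripts have 1263 to 8512 bp, the Spearman correlation across genes between length and log2 difference was -0.33 at 2.5 μM and -0.44 at 5 μM, against -0.26 and -0.37 over 11200 protein-coding genes. Genes share their libraries and are not replicates, so this is a description. Among the 16 genes with the shortest transcripts, up to 2104 bp, 6 were called higher and 4 lower at 5 μM, with a median log2 difference of 0.20. Among the 15 with the longest, from 3458 bp on, 3 were called higher and 9 lower, with a median of -0.47. Over all genes tested, of any length, 36.5% were called higher and 45.1% lower at 5 μM. CDC6 and MCM10, with 4564 and 4549 bp, have long transcripts and were higher, and CDC45 and ORC6, with 1879 and 1615 bp, have short ones and were lower. With the length trend removed, 11 of the 47 genes were called higher and 20 lower at 5 μM, and 10 higher and 21 lower at 2.5 μM. Over all genes under the same setting, 5175 were called higher and 7253 lower of 15665 tested at 5 μM. At 2.5 μM these were 5147 and 7150 of 15647. HELLS, with 3128 bp, was then at -1.93 at 5 μM.

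**Figure D4:**
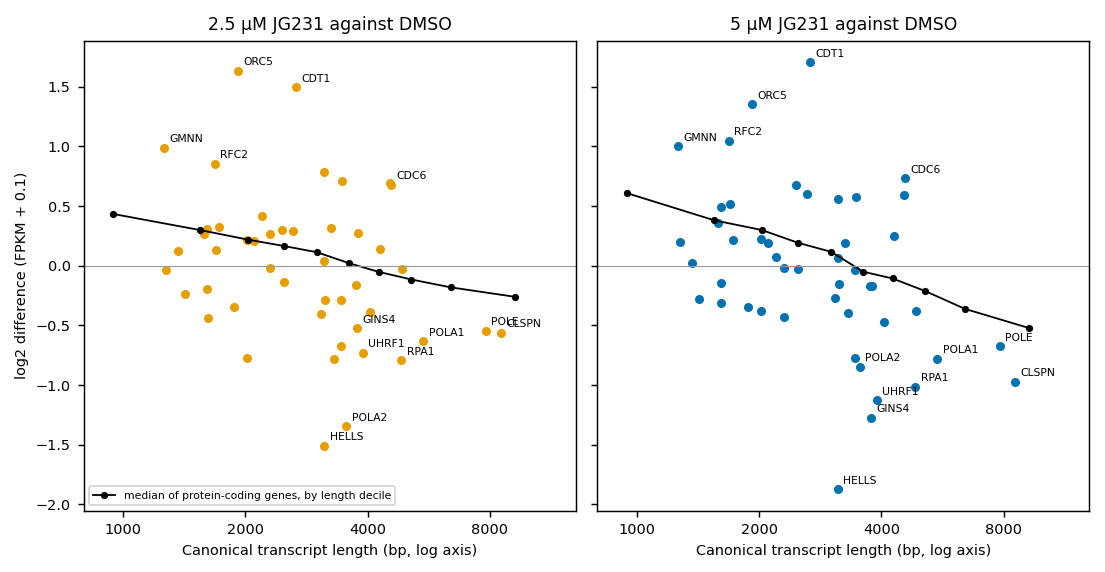
Log2 difference from DMSO of the 47 genes (coloured points) against the length of the canonical transcript on a log axis, for 2.5 μM on the left and 5 μM on the right, with the median of 11200 protein-coding genes in 10 bins of length as a black line. The line falls from 0.61 to -0.52 at 5 μM, and HELLS, CDT1 and ORC5 lie far from it.

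Between the JG231 libraries the genes differed less. At 5 μM against 2.5 μM 7 of 47 genes were called higher and 9 lower, 14.9% and 19.1%, where 26.8% of 14197 genes tested were called higher and 30.1% lower. Their median log2 difference was 0.00 and no gene differed by over 1. RFC3 and GINS4 were lowest at 5 μM relative to 2.5 μM, with -0.69 and -0.75, and for GINS4 this was within its spread. POLA2 (0.50), RPA3 (0.40), GINS1 and POLE2 (0.39 each) and MCM7 (0.37) were the highest. With libraries at the same sum, POLA2 was the gene still called higher (0.33), RPA3, GINS1, POLE2 and MCM7 were at 0.19 to 0.22, and 20 genes were called lower. Over all 14135 genes tested at the same sum, 2383 were called higher and 6378 lower. For POLA2, RPA3 and GINS1 the 5 μM library was closer to DMSO than the 2.5 μM library was, while MCM7 and POLE2 were further from DMSO at 5 μM. Of these 5, the difference of POLA2 was within its spread of 0.69.

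Promoter sequences are shown for the 3 genes with the largest positive and the 3 with the largest negative differences, ranked by the dose with the smaller difference among genes whose signs match. They are the 150 bases before the start site from RefSeq on GRCh38.p14, which for all 6 is also the start of the GENCODE canonical transcript, written 5′ to 3′ on the strand of the gene. Capitals mark E2F-type letters (TTTCGCGC, TTTGGCGC, TTTCCCGC or TTTGCCGC), the E-box CACGTG that MYC family proteins bind, and the CCAAT box, on either strand.
CDT1 (chr16:88803639-88803788, plus strand): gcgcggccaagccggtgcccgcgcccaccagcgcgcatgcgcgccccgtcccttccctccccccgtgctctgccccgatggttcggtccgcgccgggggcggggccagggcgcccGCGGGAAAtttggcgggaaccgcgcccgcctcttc
ORC5 (chr7:104208014-104208163, minus strand): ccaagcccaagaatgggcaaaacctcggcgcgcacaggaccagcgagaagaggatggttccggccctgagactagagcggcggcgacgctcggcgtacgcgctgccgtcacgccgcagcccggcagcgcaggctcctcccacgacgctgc
GMNN (chr6:24774787-24774936, plus strand): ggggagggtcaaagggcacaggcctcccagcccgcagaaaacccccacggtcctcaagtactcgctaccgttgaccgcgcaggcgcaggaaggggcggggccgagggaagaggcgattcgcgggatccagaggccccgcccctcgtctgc
HELLS (chr10:94545638-94545787, plus strand): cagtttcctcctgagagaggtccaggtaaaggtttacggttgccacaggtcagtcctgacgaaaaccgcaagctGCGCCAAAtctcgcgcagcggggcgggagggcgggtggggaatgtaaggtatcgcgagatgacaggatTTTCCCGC
POLA2 (chr11:65261812-65261961, plus strand): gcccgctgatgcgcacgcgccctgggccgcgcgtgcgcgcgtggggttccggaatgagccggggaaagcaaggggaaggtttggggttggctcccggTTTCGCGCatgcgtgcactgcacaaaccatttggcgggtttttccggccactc
RPA1 (chr17:1829855-1830004, plus strand): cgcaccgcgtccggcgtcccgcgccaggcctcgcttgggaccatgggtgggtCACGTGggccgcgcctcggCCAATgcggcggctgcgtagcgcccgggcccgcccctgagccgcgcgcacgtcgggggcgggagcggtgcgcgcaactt

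The E2F-type letters are in the windows of CDT1, HELLS and POLA2 and not in those of ORC5, GMNN and RPA1, so they occur in genes of both directions. RPA1 has the E-box and a CCAAT box, and ORC5 and GMNN have none of the letters searched in these 150 bases. In the longer window of 250 bases before to 50 after the start, a sequence was found for 41 of the 47 genes, without GINS4, MCM4, MCM5, POLD3, RPA2 and RPA3. E2F-type letters were in 21 of these 41 promoters (51.2%), against 4.54% of 15308 promoters of protein-coding genes. They were in 5 of 11 genes called higher at 5 μM, 7 of 15 not called and 9 of 15 called lower. The CCAAT box was in 25 of 41 (61.0%, against 36.6% of all) and in 6 of 11, 7 of 15 and 12 of 15 genes of the same groups. CACGTG was in 5 of 41 (12.2%, against 8.88% of all). Matches of different motifs may overlap, and they describe letters, not binding.

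A second list held 46 other replication genes, such as kinases that fire origins, fork and clamp-loader partners, histone chaperones and nucleotide enzymes. Of these 15 were called higher and 19 lower at 2.5 μM, and 15 higher and 18 lower at 5 μM, with medians of -0.09 and -0.08. These are 32.6% and 41.3% of the list at 2.5 μM and 32.6% and 39.1% at 5 μM, beside 36.4% and 43.4%, and 36.5% and 45.1%, of all genes tested. The largest differences with the same sign at both doses were picked by rule. POLE4, a small subunit of polymerase ε, had 7.80 FPKM under DMSO, 16.5 with 2.5 μM and 26.2 with 5 μM. FAF1, a cofactor of the p97 unfoldase, had 14.1, 30.9 and 35.4 FPKM, and the checkpoint kinase CHEK1 had 8.81, 17.4 and 17.0 FPKM. On the lower side, the histone chaperone ASF1B had 53.3, 26.4 and 30.6 FPKM. RNASEH2A, a subunit of the nuclease that removes RNA from DNA, had 2.98, 0.633 and 0.730 FPKM, on as few as 15.0 fragments.

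Of the genes of the E2F and RB network, which control the transcription of replication genes, more were called higher than lower. Of 30 genes 28 were tested, and 14 were called higher and 9 lower at 2.5 μM, and 15 and 10 at 5 μM, with medians of 0.34 and 0.26. These are 50% and 32.1% of the genes tested from the list at 2.5 μM and 53.6% and 35.7% at 5 μM, beside 36.4% and 43.4%, and 36.5% and 45.1%, of all genes tested. The median at 5 μM turned to -0.12 after rescaling that left out mitochondrial and small RNA genes. CDKN1A, the p21 inhibitor of cyclin-dependent kinases, had 97.6 FPKM under DMSO, 201.9 with 2.5 μM and 250.2 with 5 μM. E2F4, an E2F that acts mostly in repression, had 11.0, 21.1 and 24.1 FPKM, and the kinase CDK6 had 0.690, 2.08 and 1.71 FPKM. CCNE1, cyclin E1, which drives entry into S phase, had 9.77, 2.14 and 1.01 FPKM, log2 differences of -2.14 and -3.15 against a spread of 0.50. The pocket protein RBL2 had 7.41, 4.26 and 2.48 FPKM and the E2F partner TFDP2 had 14.3, 7.25 and 5.36 FPKM. CDKN1A was higher and CCNE1 lower in the same libraries in which CDT1, GMNN and CDC6 were higher, and a relation between them was not tested.

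**Figure D5:**
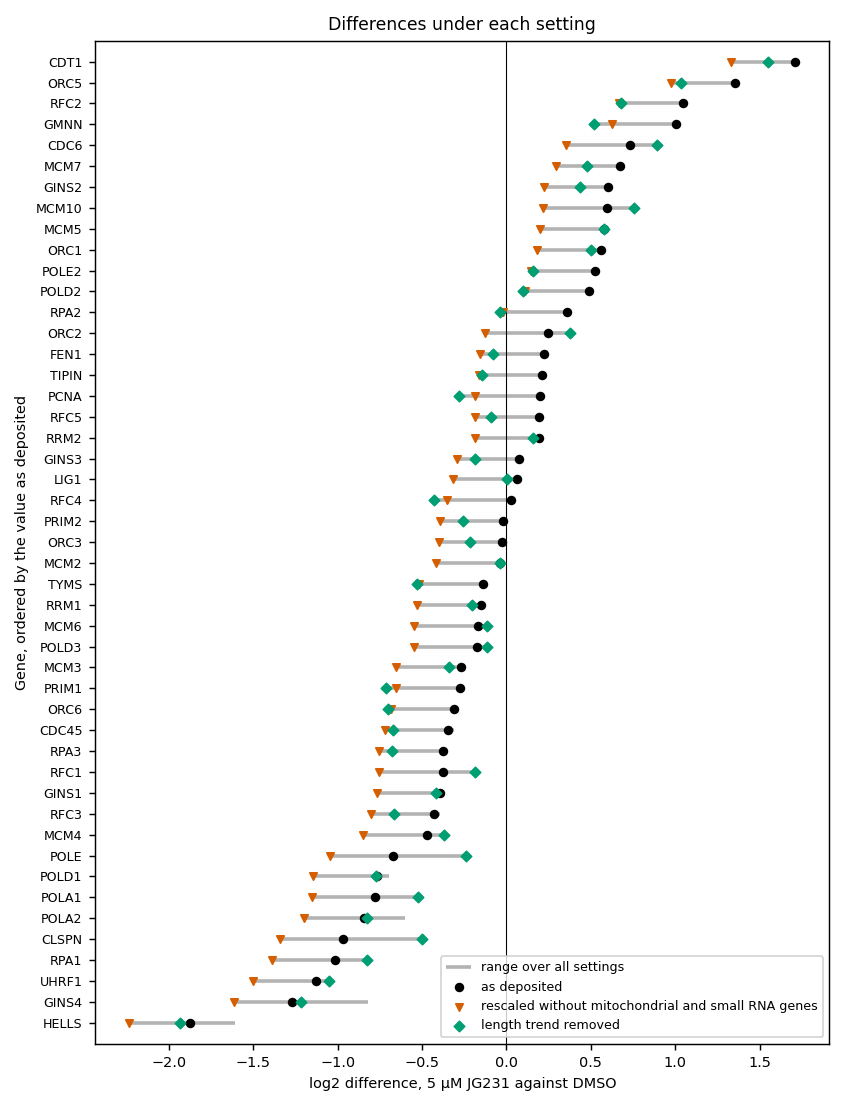
Log2 difference of the 47 genes at 5 μM against DMSO as deposited (black), rescaled without mitochondrial and small RNA genes (orange), and with the trend with transcript length removed (green), with the range over all settings as a grey line. CDT1, ORC5, RFC2, GMNN, CDC6 and MCM7 stay above 0.25, and 16 genes, HELLS among them, stay below -0.25.

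At 5 μM 37 of 47 genes kept their sign under every setting in which they passed the filter, 12 above 0 and 25 below. CDT1, ORC5, RFC2, GMNN, CDC6 and MCM7 stayed above 0.25 throughout, and 16 genes stayed below -0.25. These 16 were HELLS, GINS4, UHRF1, RPA1, CLSPN, POLA2, POLA1, POLD1, MCM4, RFC3, GINS1, RPA3, CDC45, ORC6, PRIM1 and MCM3. At 2.5 μM 35 of 47 kept their sign, with 8 above 0.25 and 15 below -0.25 throughout. With the rescaling, 6 genes were called higher and 28 lower at 5 μM, and 8 higher and 24 lower at 2.5 μM, since this setting lowers all genes. The genes ORC1 (0.18), MCM5 (0.20) and MCM10 (0.22) were then short of the threshold at 5 μM. Among all genes called, the share called higher then went at 2.5 μM from 45.6% to 30.8%, and at the higher dose from 44.7% to 27.9%. Between the doses it went from 47.1% to 35.9%, and to 27.2% when each library was brought to the same sum.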

How the data were processed

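mRNA libraries of H660 cells were sequenced by the authors, 1 library for each of DMSO, 2.5 μM and 5 μM JG231. According to the methods, reads were aligned with HISAT and quantified with StringTie, and the authors deposited gene-level FPKM. The submitters' processing notes name HISAT2, featureCounts, GRCh38 and hg38. The labels describe stranded libraries, and whether the quantification used strand is not given in the sources used here. Versions and the annotation release are not given in the sources used here, and FPKM values were not scaled between libraries.

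Columns were matched to samples by title. Symbols were matched exactly, and biotypes, canonical transcript lengths and start sites came from GENCODE release 44 by gene identifier (528 of 58735 rows had no match). The filter (over 1 FPKM in either library), the pseudocount of 0.1 and the log2 threshold of 0.25 follow the methods of the study. FPKM are not counts, so no count model was used. Fragments were estimated as FPKM times canonical length over the value of 1 fragment, found from genes with 1 transcript, where 86.7% to 90.5% of values under 50 fragments lay within 0.1 of a whole number. They are approximate for genes with several transcripts.

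The 47 genes and the other lists were chosen with earlier results of these data known. Genes outside the 47 were named by a rule, the 3 largest positive and negative differences of each list, ranked by the dose with the smaller difference, same sign at both, restricted to means of 1 FPKM or more. Some genes that the rule or the marker lists select are not reported here. The table holds 15 pseudogene rows named after the 47 genes, all listed at 0. Alternatives were pseudocounts of 1 and 0.01, a mean FPKM of at least 5, no filter, a threshold of 1, 2 rescalings, centring on the median gene, a lowess fit (fraction 0.3) subtracted for transcript length, and summing rows of a symbol. The scripts were tested on simulated data. Values were computed in Python 3.11.15 with pandas 2.3.3 and numpy 2.4.6, the lowess fit came from statsmodels 0.14.6, and plots were drawn with matplotlib 3.10.9.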

Additional observations from a re-analysis of the deposited data

Results flagged for a closer look

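RFC3, a small subunit of the clamp loader, was the gene among the 47 that was called in opposite directions at the 2 doses. Its level was 13.0 FPKM under DMSO, 15.6 with 2.5 μM and 9.62 with 5 μM. The log2 differences were 0.27 and -0.43, and the spread was 0.29. The value at 2.5 μM was within the spread, and it turned to -0.023 after rescaling that left out mitochondrial and small RNA genes. The difference was not tested, since each dose had 1 library.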

How the results depend on the processing

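No result has a replicate, so no library could be left out and no paired analysis was possible because each condition has 1 library. A threshold of 1 left 2 genes higher and 2 lower at 2.5 μM, 4 and 4 at 5 μM, and 0 and 0 between the doses. Over all 14197 genes tested between the doses it left 1061 and 1148. Rescaled without mitochondrial and small RNA genes, 8 of the 47 were higher at 2.5 μM, and 6 higher and 28 lower at 5 μM. The median of the 47 genes was then -0.30 at 2.5 μM and -0.40 at 5 μM, that of the other replication genes was -0.45 at 5 μM, and that of the E2F and RB genes was 0.051 at 2.5 μM and -0.12 at 5 μM, which reversed its sign. Among called genes, the same rescaling turned POLD3 to -0.016, RFC3 to -0.023 and RPA2 to -0.025 at 2.5 μM, and RPA2 to -0.020 at 5 μM. With the length trend removed, 10 genes were higher at 2.5 μM (5147 of 15647 over all genes tested), and RPA2 was -0.020 at 2.5 μM and -0.038 at 5 μM. Brought to the same sum, 1 gene was higher and 20 lower at 5 μM against 2.5 μM, beside 2383 and 6378 of 14135 genes tested. Genes that were not called turned sign too with mitochondrial and small RNA genes left out of the rescaling, FEN1, LIG1, ORC2, RFC4 and RFC5 at both doses, POLE2 at 2.5 μM, and GINS3, PCNA, RRM2 and TIPIN at 5 μM. Of the other values for single genes and role groups, 108 moved by more than the spread and 1326 did not. The second count is not a measure of robustness, since the changed filters and the summed rows cannot alter a single gene's log2 difference. The counts by pseudocount, by centring and by summed rows stayed within 1.5 times those reported. Depth limits ORC5, GINS3, GINS4 and POLA2 most, which had the fewest fragments in DMSO.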
